A study of Mus musculus with 2 samples.

Results

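Matrix metalloproteinases (Mmp) and Adam proteases are zinc-dependent enzymes that cut proteins outside the cell or at its surface. The set described here is 10 listed genes, Mmp9, Mmp14, Mmp19, Adam8, Adam9, Adam10, Adam15, Adam17, Adam19 and the inhibitor gene Timp2, out of 21887 protein-coding genes in the RefSeq table used. The members are those of a fixed list of names. For each, every peak summit inside it or at most 50 kb away was taken, by position alone. The peaks mark histone H3 acetylated at lysine 27 (H3K27ac), a modification found at active promoters and enhancers.

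The study profiled H3K27ac by CUT&Tag, in which an antibody guides a transposase to the marked chromatin, in macrophages sorted from the mouse colon. The WT mice carried Lyz2-Cre, and the Tle4cKO mice carried Tle4f/f Lyz2-Cre, so both groups had the Cre transgene. Lyz2-Cre is active in myeloid cells, macrophages, monocytes and neutrophils among them, and removes the floxed gene of the corepressor Tle4 there. All mice were C57BL/6 males of 11.1 weeks. The sort kept cells with CD64, little Ly6C and no Siglec-F. Cells of 4 mice were pooled per genotype, which left 1 library for WT and 1 for Tle4cKO, with no replicate of either.

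In macrophages these enzymes have several known tasks. Secreted and membrane-bound Mmps degrade collagens and other matrix proteins, and Timps block them. Adam proteases shed membrane proteins: Adam17 releases the cytokine TNF, and Adam10 starts the cleavage of Notch receptors and releases chemokines and other surface proteins.

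The start regions of 3 members carry the results on the members' own promoters and are shown here: that of Adam17, with a WT summit inside it, that of Adam10, with WT summits just behind it, and an internal start of Adam19, with a summit of each library inside it. The bases are those before the start in RefSeq (GRCm38.p6), written 5′ to 3′ along the gene's strand. Capitals mark matches to 8 short motifs on either strand. The Adam17 bases are chr12:21373633-21373882 (minus strand), the Adam10 bases chr9:70678732-70678943 (plus) and the Adam19 bases chr11:46127654-46127903 (plus). The Adam10 run stops 38 bases before the listed start, at the outer end of the gene.
Adam17: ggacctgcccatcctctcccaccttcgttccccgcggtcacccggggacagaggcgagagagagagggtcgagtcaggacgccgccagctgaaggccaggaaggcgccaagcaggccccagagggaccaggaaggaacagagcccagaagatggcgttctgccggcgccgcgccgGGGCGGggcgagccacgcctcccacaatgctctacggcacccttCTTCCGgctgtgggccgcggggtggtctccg
Adam10: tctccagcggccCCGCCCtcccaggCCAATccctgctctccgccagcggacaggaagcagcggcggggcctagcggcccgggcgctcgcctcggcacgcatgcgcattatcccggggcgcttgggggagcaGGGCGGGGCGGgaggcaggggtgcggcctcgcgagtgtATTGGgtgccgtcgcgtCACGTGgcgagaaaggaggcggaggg
Adam19, internal start: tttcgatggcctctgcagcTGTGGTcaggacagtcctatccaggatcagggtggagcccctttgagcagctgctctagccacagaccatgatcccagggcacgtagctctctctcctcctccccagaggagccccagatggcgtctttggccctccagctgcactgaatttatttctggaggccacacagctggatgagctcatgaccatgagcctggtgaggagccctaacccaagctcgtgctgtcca

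The WT list held 10474 summits and the Tle4cKO list 2350, which is 4.46 WT summits for each Tle4cKO summit. Each summit has a score from the authors, apparently a −log10 significance value. Such a score grows with read depth, which is unknown, so it serves only to rank summits within 1 list, and a summit missing from a list was not called there but may still carry signal. In pooled cells, fewer marked cells and weaker marking per cell cannot be told apart. Neither list had a summit in Tle4 itself or up to 10 kb around it, so the summits do not check the genotype labels. Of 15 macrophage marker genes, 8 had WT summits inside them or at most 10 kb away, namely Adgre1, Csf1r, Cx3cr1, Fcgr1 (CD64), Mertk, Cd14, Cd68 and Mrc1, and 0 had a Tle4cKO summit. Over all protein-coding genes these shares were 39.2% and 11.6%. Among markers of cells that also make these proteases, 1 of 10 neutrophil genes (Csf3r) and 1 of 10 fibroblast genes (Pdgfrb) had a WT summit, and S100a8, S100a9, Mpo, Col1a1 and Col1a2 had none in either list. Of 9 epithelial genes 1 (Cdh1), 1 of 5 eosinophil genes (Ccr3), 1 of 6 T cell genes (Cd4) and 2 of 5 B cell genes (Cd79b and Ms4a1) had a WT summit. None of the markers of these other cells had a Tle4cKO summit. At Cd14, Cdh1, Cd4 and Ms4a1 the highest-scoring WT summit was nearest to another gene, in that order Tmco6, Tango6, Gpr162 and Ms4a5.

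Around the 10 genes, acetylated regions were called in every 50 kb window in WT and in fewer of the windows in Tle4cKO. The windows held 31 WT summits, between 1 and 5 per gene, and 7 Tle4cKO summits, between 0 and 2 per gene. That is 4.43 WT summits for each Tle4cKO summit, close to the ratio of the whole lists. All 10 windows contained WT summits, beside 59.6% of all protein-coding genes, and 5 had a Tle4cKO summit (Mmp9, Mmp19, Adam8, Adam17 and Adam19), beside 22.9%. The same 5 genes had a WT and a Tle4cKO summit at most 500 bp apart, beside 19.2%. The genes were chosen with such results known, so nothing is read from the difference. With a window of 10 kb the counts were 8 in WT and 2 in Tle4cKO, beside 39.2% and 11.6% of all protein-coding genes. The 2 genes left in Tle4cKO were Mmp19 and Adam19, and both had a pair, beside 9.72% of all protein-coding genes. The outermost summits taken lay 46.2 kb (WT, at Timp2, score 4.51) and 43.8 kb (Tle4cKO, at Adam17, 4.84) from their gene. The nearest left out, at 70623348 on chromosome 9 in both lists (13.7 in WT and 4.60 in Tle4cKO), lay 55.6 kb from Adam10. A summit was called shared when 1 of the other library lay at most 500 bp from it. Of the 31 WT summits 7 were shared (22.6%, 95% interval 9.59 to 41.1%, beside 18.0% of the whole WT list). Of the 7 Tle4cKO summits 6 were shared (85.7%, 42.1 to 99.6%, beside 79.7% of the whole Tle4cKO list). Both intervals hold the value of the whole list. They cover counting error only and treat every summit as independent, also the 2 WT summits at Mmp19 with the same partner. When only the 2350 highest WT scores were kept, 1 of the 7 Tle4cKO summits (14.3%) had a partner and 1 gene a pair. With scores of at least 5 in both lists, 0 of 13 WT summits and 0 of 1 Tle4cKO summit had a partner. Shares over the whole lists and all genes were not computed under either cut, so nothing is read from these falls.

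**Figure D1:**
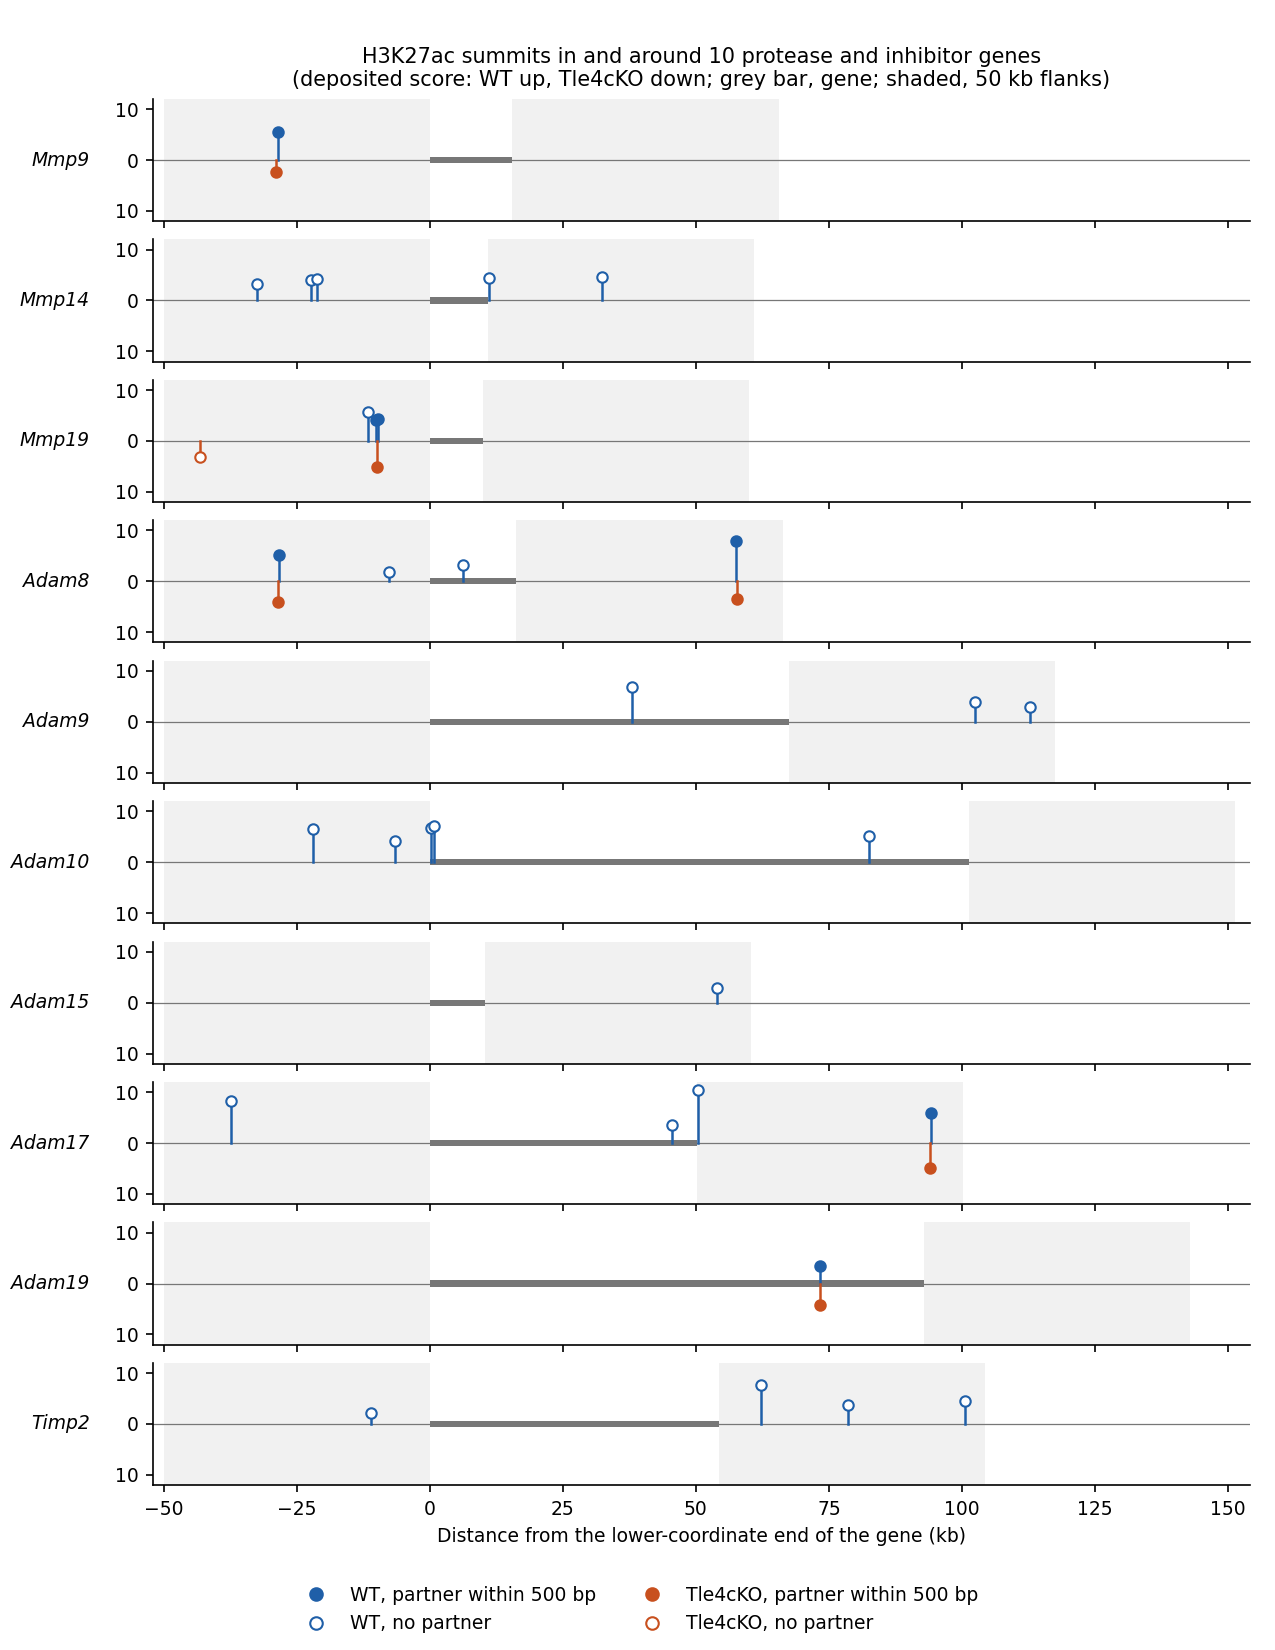
Each row is 1 gene (grey bar) with 50 kb on either side (shaded); the x axis gives the distance in kb from its lower-coordinate end, and the stems give the deposited score, WT upward and Tle4cKO downward. Filled points have a partner within 500 bp in the other list; the 7 Tle4cKO stems stand at Mmp9, Mmp19, Adam8, Adam17 and Adam19, and Mmp14, Adam9, Adam10, Adam15 and Timp2 have WT stems alone.

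Most of the shared places belonged to neighbouring genes by position. The member was the nearest protein-coding gene for 14 of the 31 WT summits, spread over 8 members, and for 2 of the 7 Tle4cKO summits, at Mmp19 and Adam19. Over all protein-coding genes, 32.6% were nearest to a WT summit and 10.0% to a Tle4cKO summit. Inside the member lay WT summits at 5 genes (Adam8, Adam9, Adam10, Adam17 and Adam19), beside 25.3% of all protein-coding genes, and a shared place at 1, Adam19, beside 6.02%. Within 1 kb of an outer end of the member itself lay 4 WT summits (Mmp14, Adam10 with 2 of them, and Adam17) and 0 Tle4cKO summits, where 22.6% and 6.19% of all protein-coding genes have such a summit. Another 10 WT and 3 Tle4cKO summits lay at an end of a different gene only. The share of all summits in each list that lie at a gene end was not computed, so nothing is read from these counts. The annotation used gives no exons, so a place inside a gene cannot be assigned to an exon, an intron or a UTR.

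Adam17, the TNF-releasing sheddase (chromosome 12, 21323509 to 21373632, minus strand), had the highest score of all the windows. Its WT summit at position 21373865 scored 10.4 and ranked 527 of 10474. It lay 233 bp before the listed start, inside the sequence shown above. No Tle4cKO summit was called there, and the nearest lay 43.6 kb away. In the highest decile of WT scores, to which this summit belongs, 61.1% of 1051 summits had a Tle4cKO partner. A second WT summit, at 21368995, lay in the gene 4.64 kb behind the start with a score of 3.62 (rank 7237) and also had no partner. The only Tle4cKO summit of the window, at 21417439 (4.84, rank 795 of 2350), lay 3 bp before the start of Ywhaq, which encodes a 14-3-3 adaptor protein, and 148 bp from a WT summit (5.92, rank 2806). The remaining WT summit (8.21, rank 1127) lay at the ends of Itgb1bp1, an integrin-binding protein gene, and Cpsf3, a gene of mRNA 3′ end processing, 131 kb from any Tle4cKO summit. The Adam17 locus thus had its shared region at a neighbour and WT summits alone at the gene.

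Adam10, the sheddase of Notch receptors (chromosome 9, 70678944 to 70780229, plus strand), had 5 WT summits and 0 Tle4cKO summits. A pair of WT summits lay 168 and 817 bp behind the listed start, at 70679150 and 70679799, with scores of 6.77 and 7.08 (ranks 1962 and 1718). They were 649 bp apart and lay behind the sequence shown above. Another, at 70761372 (5.24, rank 3827), lay in the gene 82.4 kb behind the listed start, and another, at 70672379 (4.21, rank 5823), 6.57 kb before the gene. The last (6.49, rank 2207) lay 79 bp behind the start of the neighbour Mindy2, a deubiquitinase gene. The nearest Tle4cKO summit was 55.6 kb from the gene. Adam10 thus had the most WT summits nearest to it of the 10 genes, 4, and none with a partner. It is also the longest of the 10 genes, at 101 kb against a median of 33.2 kb, and the counts were not adjusted for length.

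Adam19, or meltrin beta, a sheddase of neuregulins (chromosome 11, 46054502 to 46147347, plus strand), was the only member with a Tle4cKO summit inside the gene, where 7.26% of all protein-coding genes have one. The Tle4cKO summit at 46127767 scored 4.31 (rank 1052 of 2350) and the WT summit at 46127837 scored 3.43 (rank 7683 of 10474). They lay 70 bp apart, 137 and 67 bp before the third of 3 listed starts of the gene, within the internal sequence shown above and 73.3 kb from the first start. No summit of either list was called within 1 kb of the first or the second start. The WT summit stood in a low decile of its list, with scores of 3.16 to 3.57, in which 8.83% of 1042 summits had a partner.

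**Figure D2:**
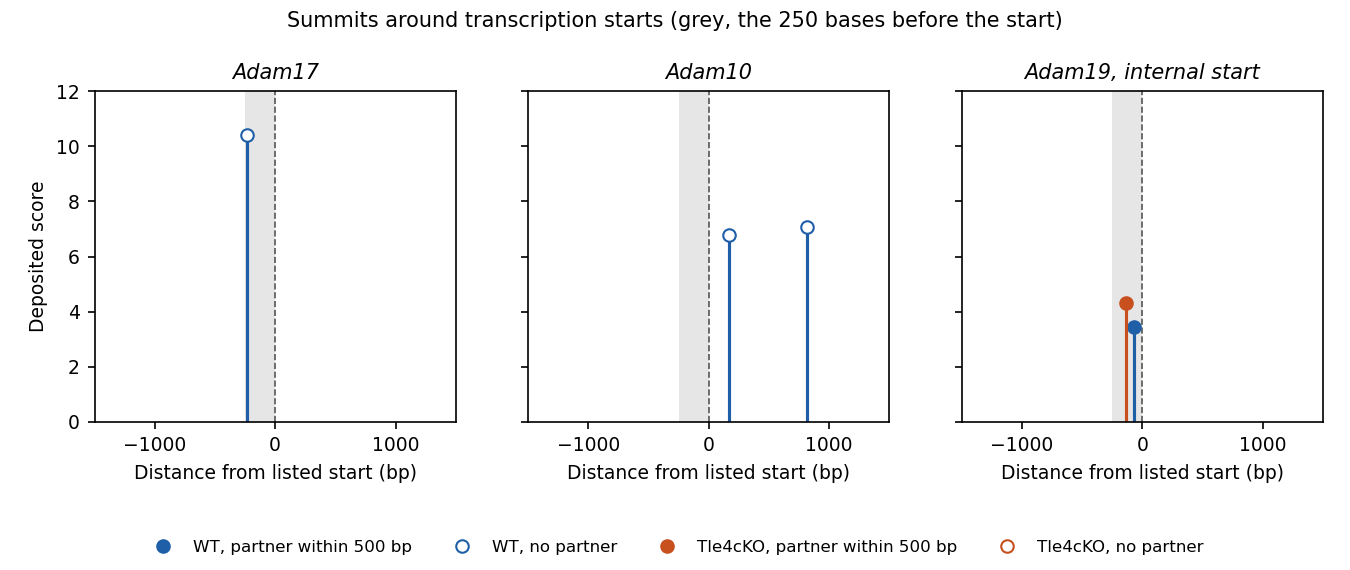
Deposited score (y) against the distance in bp from the listed transcription start (x, negative before the start) for Adam17, Adam10 and the internal start of Adam19, with the 250 bases before each start in grey. Adam17 has a WT summit at 233 bp before its start, Adam10 a pair of WT summits 168 and 817 bp behind it, and Adam19 a WT and a Tle4cKO summit 70 bp apart.

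Of the 9 listed starts of 7 members, 3 (at Adam10, Adam17 and Adam19) had a WT summit within 1 kb, beside 23.7% of the 21263 listed starts of protein-coding genes, and 1 (Adam19) had a Tle4cKO summit there, beside 6.55%. The starts differ in base composition. In the 250 bases before the start, the ratio of observed to expected CpG was 0.87 at Adam10, 0.74 at Adam17, 0.77 at Adam15 and 0.74 at Timp2, above the median of 0.53 over 21263 windows. Mmp14 had 0.53 and Adam8 0.34. The 3 Adam19 windows had 0.32, 0.33 and, at the internal start, 0.19. Across all windows, a WT summit lay within 1 kb in 4.10% of the lowest quartile by this ratio and in 44.3% of the highest, and a Tle4cKO summit in 0.847% and 12.5%. The internal Adam19 start is in the lowest quartile, so the region called in both lists is at the most CpG-poor of the 9 member windows. Adam15 and Timp2 have CpG ratios close to that of Adam17 and had no summit within 1 kb of their start in either list.

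The motif letters also differed between the sequences shown. The GC box, GGGCGG, is bound by Sp and Klf factors and was found in 42.6% of all windows of 250 bases. The CCAAT box (CCAAT), bound by NF-Y, was in 35.4%. The core of ETS factors that is common at CpG-rich promoters, CGGAAG, was in 17.1%, and the longer form preferred by the macrophage factor PU.1, GAGGAAGT, in 2.23%. The site of RUNX factors, which recruit Groucho proteins such as Tle4, was searched as TGTGGT and was in 12.4%. That of TCF/LEF factors, also Groucho partners, was searched as CTTTGAT and was in 2.82%. The E-box CACGTG was in 6.63% and the AP-1 site TGANTCA in 6.13%.

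Adam17 held a GC box that begins 75 bases before its start and an ETS match at 31. Adam10 held GC boxes at 238, 119 and 114, the last 2 of which overlap, CCAAT matches at 225 and 81, and an E-box at 64. The internal Adam19 sequence held a RUNX match at 231 and no GC box. Over the 9 member windows, GC boxes were found in 6, CCAAT in 5, ETS and RUNX in 3 each, E-box in 2 and AP-1 in 1, while TCF/LEF and PU.1 letters were in 0. These are matches of letters only.

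Mmp19, a secreted protease of basement membrane proteins (chromosome 10, 128790910 to 128800827), was the other member nearest to a shared place. It had no summit in the gene. A run of 3 WT summits spanning 1852 bp lay off its lower-coordinate end, at 128779335 (5.59, rank 3277), 128780779 (4.06, rank 6151) and 128781187 (4.32, rank 5615). They were 11.6, 10.1 and 9.72 kb from the gene, which was the nearest protein-coding gene to all of them. The Tle4cKO summit at 128780961 (5.20, rank 697 of 2350) fell between the second and the third, 182 and 226 bp from them, and 1.63 kb from the first, which had the highest WT score and no partner. It was the highest-ranked Tle4cKO summit of all the windows. The other Tle4cKO summit, at 128747787 (3.15, rank 1723), lay 92 bp before the start of Pym1, a gene of the exon junction complex cycle, and its nearest WT summit was 31.5 kb away. It was the only Tle4cKO summit of the 7 without a WT partner.

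Mmp14, a membrane-anchored collagenase that activates pro-Mmp2 (chromosome 14, 54431598 to 54442456, plus strand), had 5 WT and 0 Tle4cKO summits. The WT summit nearest to the gene, at 54442675 (4.43, rank 5316), lay 219 bp past its downstream end, 11.1 kb from its start. At the start itself no summit was called. Summits at 54399169 (3.25, rank 8157), 54409201 (3.95, rank 6434) and 54410467 (4.27, rank 5684) lay in the amino acid transporter gene Slc7a7, the last 2 of them 271 bp behind and 264 bp before its listed start. A summit at 54463881 (4.66, rank 4839) lay 266 bp before the start of Lrp10, a lipoprotein receptor family gene. The 5 WT scores ran from 3.25 to 4.66, and the nearest Tle4cKO summit was 125 kb from the gene.

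Mmp9, the secreted gelatinase B (chromosome 2, 164940326 to 164955850), had no summit of its own in either list. A WT summit at 164911800 (5.53, rank 3385) and a Tle4cKO summit at 164911399 (2.31, rank 2184 of 2350) lay 28.5 and 28.9 kb from it. Both were at the start of the zinc finger gene Zfp335, 50 bp before and 351 bp behind it. They were 401 bp apart, the widest of the 7 shared WT summits, whose distances ran from 70 to 401 bp with a median of 157 bp, against 91 bp over the whole WT list. With a partner distance of 200 bp this place was no longer shared.

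Adam8, a leukocyte surface protease (chromosome 7, 139978932 to 139995207, minus strand), had 4 WT and 2 Tle4cKO summits. Inside the gene lay a WT summit at 139985087 (3.13, rank 8425), 7475 bp behind the listed start, and its nearest Tle4cKO summit was 34.6 kb away. A WT summit at 139971310 (1.84, rank 10420) had the lowest score of the windows and lay 988 bp from Spef1l. The shared places lay farther off. One, at 139950587 in WT (5.14, rank 3996) and 139950494 in Tle4cKO (3.97, rank 1215), was 5475 bp from Utf1, a transcription factor gene. The other, at 140036458 (7.99, rank 1218) and 140036615 (3.47, rank 1499), was at the ends of Tubgcp2, a gamma-tubulin complex gene, and Zfp511.

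Adam9, a widely expressed sheddase (chromosome 8, 24949611 to 25017040), had a WT summit inside the gene at 24987542 that scored 6.87 and ranked 1892. The nearest Tle4cKO summit was 767 kb away, the longest such distance in the windows, where WT summits without a partner lay at a median of 94.3 kb from a Tle4cKO summit. The other WT summits of its window, at 25052067 (3.83, rank 6712) and 25062370 (2.86, rank 9016), lay in Plekha2, a phosphoinositide-binding adaptor gene. Adam15, an integrin-binding protease (chromosome 3, 89339640 to 89350028, minus strand), had the emptiest window. Its single WT summit, at 89393675 (2.91, rank 8934), lay 43.6 kb away and 2 bp outside Zbtb7b, a zinc finger factor gene. The nearest Tle4cKO summit was 389 kb from Adam15.

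Timp2, which inhibits Mmps and also takes part in pro-Mmp2 activation by Mmp14 (chromosome 11, 118301061 to 118355411, minus strand), had 4 WT and 0 Tle4cKO summits. The highest-scoring, at 118363232 (7.71, rank 1351), lay 7.82 kb before its start, with Timp2 as the nearest protein-coding gene. A summit at 118379576 (3.72, rank 6999) lay 24.2 kb before the start, and 13171 bp from Lgals3bp, a galectin-binding protein gene. The others lay at the starts of Lgals3bp (118401610, 4.51, rank 5175) and of the deubiquitinase gene Usp36 (118290042, 2.21, rank 10135). No summit was called in Timp2 or within 1 kb of its ends, and the nearest Tle4cKO summit was 104 kb from the gene.

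The window summits were spread over the score order of the WT list. Their median WT score was 4.43, against 4.47 in the whole list, and they ranged from 1.84 to 10.4. In Tle4cKO the median was 3.97, against 4.05, with a range of 2.31 to 5.20. Of the 7 WT summits in the highest 2 deciles, at Adam17 (2), Adam10 (2), Adam8, Adam9 and Timp2, 1 had a Tle4cKO partner, the place at Tubgcp2 and Zfp511. In the whole list 27.2% of the second-highest decile and 61.1% of the highest had a partner. No Tle4cKO summit of the windows was in the highest 2 deciles of its own list. Among WT summits below the median of the list, 3 of 16 were shared, at Mmp19 (2) and Adam19, beside 7.96% of 5237 in the whole list. The 2 at Mmp19 have the same Tle4cKO summit as partner.

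**Figure D3:**
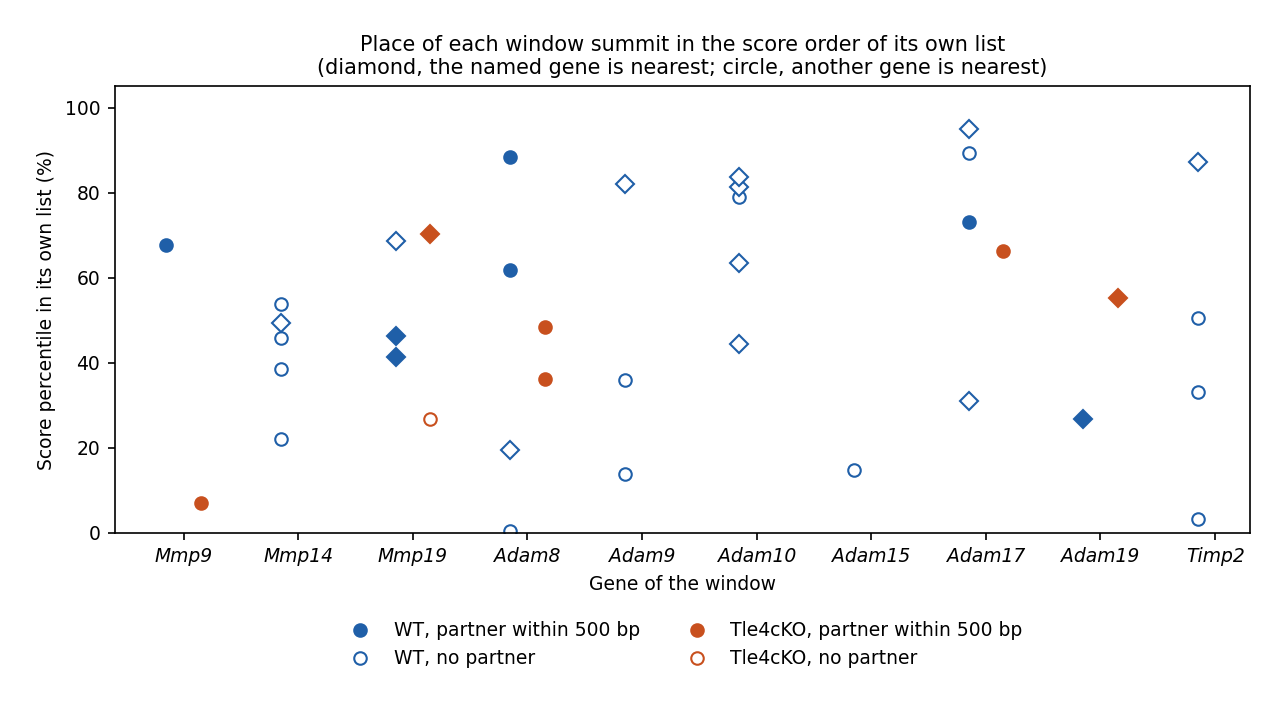
Percentile of each window summit within its own list (y, the highest score at 100) for each gene (x), with WT at the left and Tle4cKO at the right of each gene name; filled points have a partner within 500 bp and diamonds have the named gene as nearest gene. The WT diamonds at Adam17 (score 10.4), Timp2 (7.71), Adam10 (7.08 and 6.77) and Adam9 (6.87) are high and open, and the filled diamonds are at Mmp19 and Adam19.

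For each member with a shared place, the closest pair was set beside the gene-end pairs of 1191 genes by score percentile in both lists. Likeness here is the sum of the 2 differences in percentile points, over 2 libraries only. The Adam19 pair was nearest to the common pair of Nif3l1 and Ppil3 (0.73 points), and the Mmp19 pair to Enox2 (1.17) and Taco1 (4.55). The pairs at neighbours of the other members were nearest to Chrac1 (0.50) and Fip1l1 (0.60) for Adam17, Sdf2 and Supt6 (a common pair, 4.13) for Adam8, and Mapk7 (3.59) and Pcm1 (4.33) for Mmp9.

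The rest of the protease families was read within 10 kb, where the marked share of all protein-coding genes was 39.2% in WT and 11.6% in Tle4cKO. Of 20 other Mmp genes 4 had a WT summit and 1 a Tle4cKO summit, of 26 other Adam genes 2 and 0, and of 19 Adamts genes 3 and 1. The pair at Mmp24, a membrane-type Mmp, lay 14 bp apart (5.68 in WT, 5.93 in Tle4cKO). It was 645 and 659 bp outside an end of Mmp24 but nearest to BC029722. Mmp11 (5.32) and Mmp28 (4.89) had WT summits nearest to Smarcb1 and Taf15. The WT summit of Mmp25 (2.98) lay inside that gene at its own end, and also inside Bicdl2. Mmp25 was added for mention after its value was seen. Adam11 (5.15), Adam3 (4.45) and Adamts14 (2.64) were the nearest genes to their WT summits. The pair at Adamts13, the protease of von Willebrand factor (11.1 and 2.78), was nearest to Rexo4, and the WT summit of Adamts10 (6.50) to Myo1f. A list of 9 protease inhibitor genes was not limited to inhibitors of Mmp or Adam enzymes. Of these, 1 had a WT summit, Cst3 (3.81), which encodes cystatin C, and 0 had a Tle4cKO summit. Timp1, Timp3, Timp4 and Reck had no summit in either list.

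Of 28 genes that activate or assist the proteases, 17 (60.7%) were marked within 10 kb in WT and 4 (14.3%) in Tle4cKO. The proprotein convertase gene Pcsk7 (10.2), at an end it shares with Rnf214, and the integrin gene Itgb1 (6.67) had WT summits alone, as did Pcsk6 (7.16), whose summit was nearest to Snrpa1. Tspan10, a tetraspanin that guides Adam10, had a pair of summits 323 bp apart (5.32 and 5.57) nearest to Nploc4. Ptk2b, a kinase gene, had both at its own end (5.05 and 3.51). The tetraspanin gene Tspan33 was the only gene of this list with a Tle4cKO summit alone (2.23), and was chosen for mention after its value was seen.

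Of 31 genes whose proteins are shed from the surface, 14 were marked within 10 kb in WT and 5 of these in Tle4cKO too. Egf, a growth factor gene, had both inside the gene, 83 bp apart (14.9 and 5.46), and Cd74, the MHC class II invariant chain gene, both just outside it, 46 bp apart (8.90 and 7.27). App, the amyloid precursor protein gene, had 7 WT summits, the highest at 11.5, and none in Tle4cKO. Of 18 matrix substrate genes 3 had a WT summit, Col4a3 (9.58, nearest to Mff), Col4a2 (4.03, nearest to Rab20) and Col4a1 (3.35), all collagen IV genes, and 0 had a Tle4cKO summit.

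**Figure D4:**
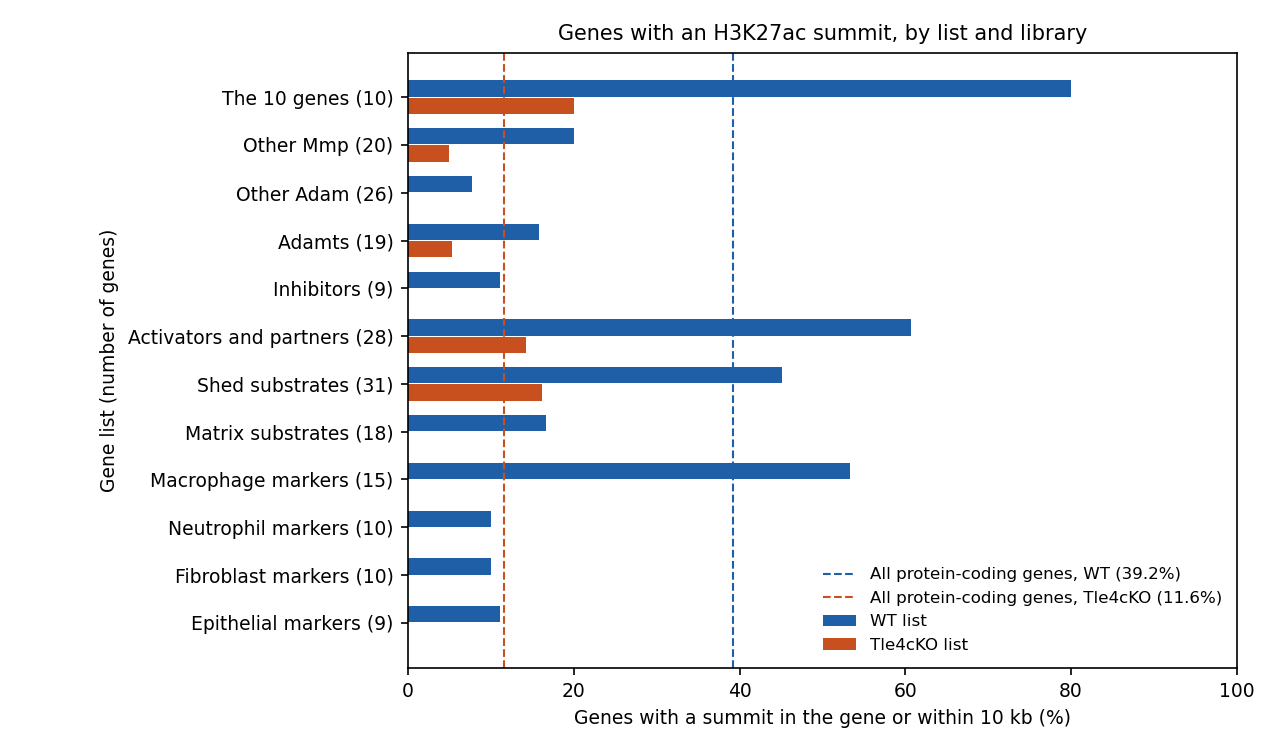
Percentage of genes with a summit in the gene or within 10 kb (x) for each list (y, number of genes in brackets), WT and Tle4cKO bars, with dashed lines at 39.2% (WT) and 11.6% (Tle4cKO) for all protein-coding genes. The 10 genes, the activators and partners, the shed substrates and the macrophage markers lie above the WT line, and the other Mmp, Adam and Adamts genes, inhibitors, matrix substrates and the markers of neutrophils, fibroblasts and epithelium below it. Not drawn are the markers of eosinophils (20% in WT), T cells (16.7%) and B cells (40%, 2 of 5 genes).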

How the data were processed

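H3K27ac CUT&Tag was measured in 1 library per genotype, each made from sorted colonic macrophages of 4 pooled mice. The submitters' processing notes name cutadapt 1.14, Bowtie2 2.2.5 and the build mm10. For each library the authors deposited a summit list whose score was taken, from its layout and lowest values, to be on the −log10 scale of a significance value (p or q). The sources used here name no peak caller, control library or read depth, so the precision at any 1 summit is unknown.

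Only autosomal, X and Y summits were kept, and the 4 WT and 2 Tle4cKO mitochondrial summits were left out. Gene spans came from a RefSeq table on GRCm38.p6, the assembly behind mm10, with 21887 protein-coding genes and no exons. Every summit in a member gene or within 50 kb was taken. Companion lists were read within 10 kb. A summit with 1 of the other library at most 500 bp away was called shared. Sequences and transcription starts came from a RefSeq promoter table of the same build, which held 7 of the 10 members. Python 3.11.15, pandas 2.3.3 and scipy 1.17.1 were used, and the steps were tested on simulated data.

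The members and lists were chosen with earlier results of these data known. All 10 members are named, with every summit and its nearest gene. Of each list of other proteases, inhibitors, partners and substrates, up to 3 genes are named by WT score and up to 2 by Tle4cKO score. Tspan33 and Mmp25 were added outside this rule. Marker genes of cell types are named where they had a summit, with some defining markers that had none. For each member with a shared summit, the 2 genes nearest to it in score percentiles are named. With 1 library per genotype no test between genotypes was possible and no p-value is given. Intervals are exact Clopper-Pearson 95% intervals for counting error only. Alternatives were other windows and partner distances, a score minimum, a shortened WT list and assignment to the nearest gene.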

Additional observations from a re-analysis of the deposited data

Results flagged for a closer look

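On the mitochondrial chromosome, left out of all comparisons, the WT list held 4 summits, which is above the limit of 3 set for a closer look, and the Tle4cKO list held 2.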

How the results depend on the processing

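No replicate was left out, since each genotype has 1 library. No paired analysis was possible because there is 1 library per genotype. The read depth is unknown, and a summit missing from a list can still carry signal under the calling threshold.

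Of 33 recomputed main values, 19 stayed within 1.5 times the reported count or inside the interval of the reported share, and 14 moved. Windows of 10 and 25 kb left 2 members with a Tle4cKO summit and 2 with a pair within 500 bp, and 100% of the 2 Tle4cKO summits had a WT partner. Within 10 kb, 11.6% of all protein-coding genes had a Tle4cKO summit and 9.72% a pair. The shares within 25 kb were not computed, so nothing is read from these counts. A score of at least 5 in both lists left 1 member with a Tle4cKO summit and 0 with a pair. The shares with a partner fell to 0% in both directions, 0 of 13 WT summits and 0 of 1 Tle4cKO summit. Scores rank summits only within 1 list, so this minimum need not be equally strict in both lists. When only the 2350 highest WT scores were kept, 5 members had a WT summit, 1 had a pair, and 14.3% of the Tle4cKO summits had a partner. For this cut and the score minimum, shares over the whole lists and all genes were not computed. Counting a summit only for its nearest protein-coding gene left 2 members with a Tle4cKO summit and 8 with a WT summit. Of all protein-coding genes, 10.0% and 32.6% were nearest to such a summit. The cause was not tested beyond the smaller lists and windows that these settings make. Partner distances of 200 and 1000 bp moved none of these values by more than the limits above.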
